A study of Mus musculus with 8 samples.

Results

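St14, Prss8, Spint1 and Spint2 encode the membrane serine proteases matriptase and prostasin and their Kunitz-type inhibitors HAI-1 and HAI-2. They were followed across sorted mammary gland cells of mice with a lacZ insertion in Axl, which encodes a TAM receptor tyrosine kinase. The members were all probes whose platform gene symbol was one of these names, which gave 7 probes for 4 genes out of 25697 probes and 16593 named genes. St14, Prss8 and Spint2 had 2 probes each and Spint1 had 1.

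RNA was hybridised to 8 Illumina bead arrays, with 2 in each of 4 groups. Axl LacZ/LacZ (homozygous) glands gave an FDG-high and an FDG-low group, and so did Axl LacZ/+ (heterozygous) glands. All animals were nulliparous, 16 weeks old and of the B6.129P2-AXLtm1Dgen strain, and all carried at least 1 lacZ allele, so no group had 2 intact Axl alleles. FDG is a substrate that fluoresces once the lacZ product cleaves it. FDG-high cells were the brightest 5% and FDG-low cells the dimmest 65% of viable cells sorted as lacking CD45, CD31 and CD11b. Glands of several animals were combined by genotype before sorting. Whether both arrays of a group drew on the same combined glands is not stated, so every p-value reflects the spread among these arrays, which may be technical. The lacZ copy number differs between the genotypes, and its effect on the gates cannot be told apart from that of Axl loss.

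Matriptase spans the membrane of epithelial cells and prostasin is tethered to the same surface by a lipid anchor. Each can activate the other's zymogen, and together they process surface receptors, growth factor precursors and ion channel subunits. HAI-1 and HAI-2, both membrane proteins with Kunitz domains, hold this activity in check, and HAI-1 also accompanies matriptase through the secretory pathway. All 4 genes are known from simple and stratified epithelia, the ducts and alveoli of the mammary gland included.

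On the arrays, the median intensity was 115.7 to 126.7 units, and 48.1% to 55.5% of probes exceeded the background level, the 95th percentile of odorant, vomeronasal and trace amine receptor probes. Levels below are normalized log2 intensities, on which the background lay between 6.09 and 6.20. Axl, by its only probe, had means of 6.24 and 6.32 in homozygous FDG-high and FDG-low cells, against 9.003 and 8.21 in heterozygous FDG-high and FDG-low cells, the order the genotype labels give. FDG-high minus FDG-low, Axl differed by 0.80 ± 0.20 in heterozygous and -0.08 ± 0.20 in homozygous glands (limma, adjusted p = 0.243 and 0.93). Heterozygous FDG-low cells thus still held Axl transcript. Ptprc (CD45) and Itgam (CD11b) were below background on all 8 arrays, whereas Pecam1 (CD31) was above it on all 8, at means of 6.81 and 6.73 in the homozygous FDG-high and FDG-low groups and of 6.36 and 6.33 in the heterozygous ones. The sorted cells were a mixture of epithelial and stromal cells: Krt8, a luminal keratin, Krt5, a basal keratin, and Pdgfra, a fibroblast receptor, were above background in every group. In such bulk samples, fewer cells of a type and less RNA per cell cannot be told apart.

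The proteases had their lowest level in homozygous FDG-low cells and their highest on the FDG-low arrays of heterozygous glands. St14, by its brighter probe, read 8.97 and 8.47 in homozygous FDG-high cells and 6.54 and 6.70 in homozygous FDG-low cells. The homozygous FDG-low values were near background, so differences with that group are compressed. In heterozygous glands St14 read 9.08 and 8.76 in FDG-high cells and 10.06 and 10.004 in FDG-low cells. The ranges of the FDG-high groups overlapped, and both FDG-low groups lay apart from them on opposite sides. The second St14 probe, dimmer but above background on all 8 arrays, was likewise lowest in homozygous and highest in heterozygous FDG-low cells. It read 7.48 and 6.82 in homozygous FDG-high cells and 6.31 and 6.39 in homozygous FDG-low cells, the latter only just above background. In heterozygous glands it gave 7.14 and 6.90 in FDG-high cells and 8.47 and 8.59 in FDG-low cells.

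Prss8 was dimmer throughout. It read 7.17 and 6.75 in homozygous FDG-high cells, 6.49 and 6.21 in homozygous FDG-low cells, 6.86 and 6.69 in heterozygous FDG-high cells and 7.91 and 8.07 in heterozygous FDG-low cells. The homozygous FDG-low arrays were only just above background, the FDG-high groups overlapped, and heterozygous FDG-low cells stood above all others. Its second probe was below background on both homozygous FDG-low arrays (5.96 and 5.99) and highest in heterozygous FDG-low cells (7.41 and 7.39), with 6.97 and 6.39 in homozygous and 6.37 and 6.68 in heterozygous FDG-high cells.

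The inhibitors also had these extremes, at very different brightness. Spint2 read 9.76 and 9.71 in homozygous FDG-high cells, 8.48 and 8.26 in homozygous FDG-low cells, 9.82 and 9.82 in heterozygous FDG-high cells and 10.28 and 10.34 in heterozygous FDG-low cells. Its level in homozygous FDG-low cells was the lowest, yet still far above background. The second Spint2 probe exceeded background on 1 of 8 arrays only, so Spint2 rests on a single informative probe.

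Spint1, with a single dim probe, read 6.34 and 6.27 in homozygous FDG-high cells, 5.96 and 6.03 in homozygous FDG-low cells, 6.35 and 6.25 in heterozygous FDG-high cells and 6.88 and 6.72 in heterozygous FDG-low cells. It was not above background on either homozygous FDG-low array. Differences that involve this group are therefore lower bounds for Spint1.

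**Figure D1:**
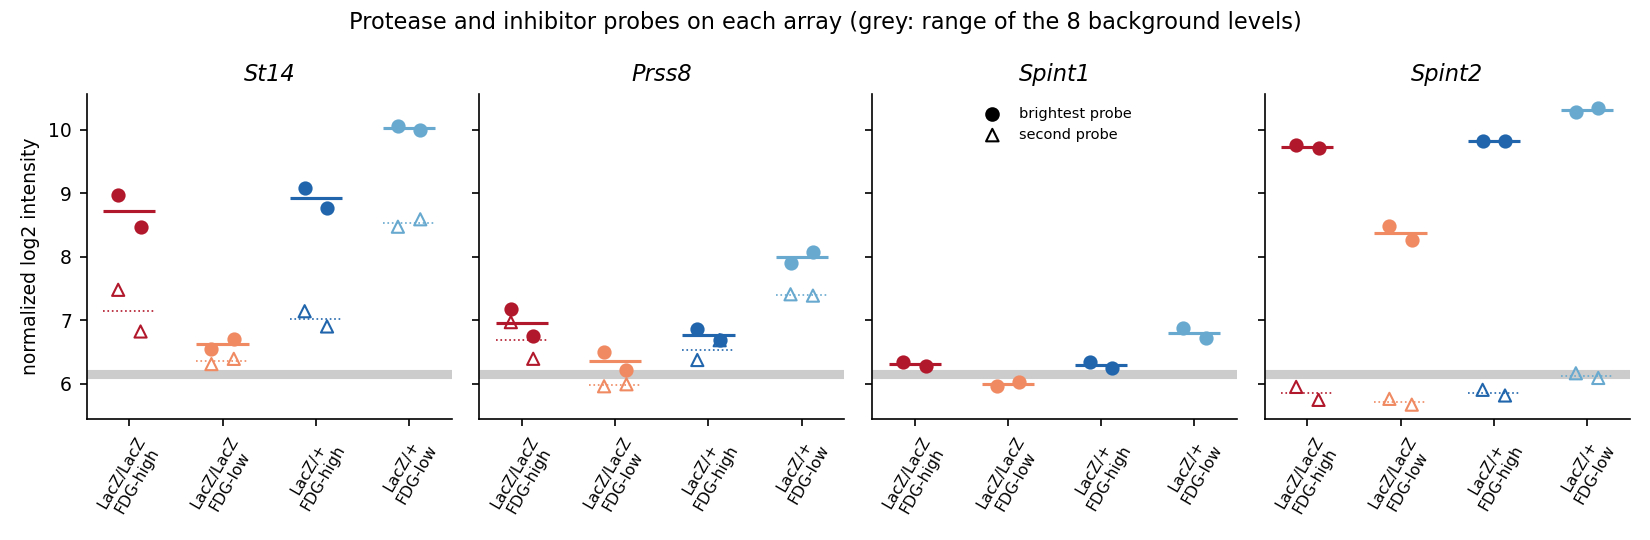
Normalized log2 intensity (vertical axis) of each probe on each array, by genotype and FDG gate, with group means as horizontal lines, filled circles for the brightest probe and open triangles for the second. The grey band is the range of background levels (6.09 to 6.20), and for the brightest probe of all 4 genes LacZ/LacZ FDG-low arrays are lowest and LacZ/+ FDG-low arrays highest.

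The start sites of both inhibitor genes are shown because both inhibitors had the same lowest and highest group while lying on different chromosomes, Spint1 on chromosome 2 and Spint2 on chromosome 7. Of the 4 members, 2 had an entry among the RefSeq promoter windows of GRCm38.p6, each running from 250 bases before to 50 bases after the start. Spint1 is chr2:119237110-119237409 on the plus strand and Spint2 is chr7:29281928-29282227 on the minus strand, and capitals mark the E-box letters CAGGTG, searched on both strands. St14 and Prss8 are named only.
Spint1: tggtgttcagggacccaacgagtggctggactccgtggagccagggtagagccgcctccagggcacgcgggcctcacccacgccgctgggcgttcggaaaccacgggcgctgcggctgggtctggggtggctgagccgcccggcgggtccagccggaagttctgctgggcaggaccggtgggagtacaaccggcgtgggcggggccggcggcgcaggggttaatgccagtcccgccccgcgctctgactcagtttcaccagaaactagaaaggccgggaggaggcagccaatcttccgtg
Spint2: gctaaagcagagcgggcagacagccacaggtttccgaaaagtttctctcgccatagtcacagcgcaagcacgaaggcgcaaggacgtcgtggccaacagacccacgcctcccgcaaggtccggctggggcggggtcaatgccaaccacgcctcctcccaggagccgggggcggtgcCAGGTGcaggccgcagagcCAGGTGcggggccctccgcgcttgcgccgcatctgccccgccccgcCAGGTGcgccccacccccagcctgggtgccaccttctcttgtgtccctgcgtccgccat
The windows were rich in G and C, at 69.7% for Spint1 and 69.3% for Spint2, against a median of 52.7% over all 32851 windows. Spint2 held 3 copies of CAGGTG, with first bases at positions -74, -55 and -9 from the start site, and Spint1 held 0. This E-box, which factors of the Zeb and Snail families bind, occurred at least once in 20.2% and at least 3 times in 0.365% of all windows. GGGCGG, the GC box, occurred 3 times in each, and 35.7% of windows held it at least once and 10.7% at least 3 times. The ETS letters GGAAGT occurred once in Spint1 and in 23.8% of windows, and the grainyhead letters AACCGGTT in 0 of both and in 0.1% of windows. None of the matches overlapped another motif. These matches describe the letters and were not tested for binding.

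Among FDG-low cells, the comparison of homozygous with heterozygous glands asks how cells with little reporter activity differ when Axl is lost, and all 4 genes were lower in homozygous cells. St14 fell by 3.41 on the log2 scale (SE 0.19), or 10.7-fold (limma, adjusted p = 0.00162). Its homozygous FDG-low level was near background, which compresses this difference. Spint2 was lower by 3.85-fold, with a log2 difference of -1.94 ± 0.10 (adjusted p = 0.00154). Prss8 was lower by 3.12-fold, at -1.64 ± 0.18 (adjusted p = 0.00733). Spint1 was at least 1.52-fold lower (adjusted p = 0.00919). The 2 homozygous arrays lay below the 2 heterozygous arrays for each gene.

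These 4 of 4 calls stand against 4.63% of all genes called lower and 3.79% called higher in this comparison. Groups that did not overlap, with the homozygous arrays lower, were found for 25.6% of all genes. The second probes of St14 and Prss8 gave -2.19 ± 0.21 and -1.43 ± 0.20 (limma over all probes, adjusted p = 0.00599 and 0.0133). St14 and Spint2 stayed past the threshold when any array was left out (highest adjusted p = 0.0329 and 0.0255). Among homozygous FDG-low arrays, leaving out the second ended the call of Prss8 (adjusted p = 0.0586), and leaving out the first (0.0738) or the second (0.0618) ended that of Spint1.

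Epithelial and stromal markers differed in the same comparison. Of 16 measured epithelial markers, 13 were lower and 0 higher in homozygous FDG-low cells, with a median log2 difference of -1.77, against 0.00 over all genes. Their summed intensity lay between 3365 and 3381 units in homozygous and between 12280 and 13240 units in heterozygous FDG-low cells. Of 14 measured fibroblast markers 7 were higher and 0 lower, with a median of 2.13 and sums of 18300 to 18690 units in homozygous against 3164 to 8016 units in heterozygous FDG-low cells. Luminal progenitor markers were lower in 7 of 9, with sums of 3607 to 3708 against 10470 to 13470 units, and basal markers in 2 of 12, with sums of 3564 to 3919 against 7037 to 12210 units. Hormone-sensing luminal markers were lower in 1 of 7, with sums of 536.0 to 563.9 against 733.1 to 781.4 units. Endothelial markers were higher in 1 of 8, and 0 of 6 leukocyte markers passed, none of them above background on any array. Elf5, a luminal progenitor factor, was not above background on either homozygous array, while Krt8 (8.46 against 10.98) and Krt5 (8.88 against 10.12) were above background on all arrays of both groups. The part of these marker differences in the fall of the 4 genes was not tested.

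In homozygous glands, FDG-high cells were set against FDG-low cells to see what distinguishes cells with the highest reporter signal. All 4 genes had a higher level in FDG-high cells, and both the brighter protease and the brighter inhibitor passed the threshold. St14 was higher by 4.29-fold, a log2 difference of 2.10 ± 0.19 (limma, adjusted p = 0.0212). Spint2 was higher by 2.58-fold, at 1.37 ± 0.10 (adjusted p = 0.0145). Prss8 had a difference of 0.61 ± 0.18 (adjusted p = 0.216) and Spint1 one of at least 1.08-fold (adjusted p = 0.249), and neither passed. The arrays of the gates did not overlap for any of the 4.

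The 2 of 4 calls compare with 0.259% of all genes called higher and 0.133% called lower, and arrays that did not overlap in this direction with 21.3% of all genes. The second St14 probe gave 0.80 ± 0.21 and did not pass (adjusted p = 0.189), and with the mean of both probes St14 missed the threshold at 1.45 (adjusted p = 0.0553). Both calls were lost without the first homozygous FDG-high array (adjusted p = 0.105 for St14 and 0.129 for Spint2), without the first homozygous FDG-low array (0.193 and 0.118) and without the second (0.185 and 0.115). St14 was also lost without either heterozygous FDG-low array (0.0587 for each), which leaves its difference as it is and reduces the degrees of freedom. With the homozygous groups fitted alone, neither passed (adjusted p = 0.0638 for St14 and 0.0561 for Spint2), nor did any gene.

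Of the 16 epithelial markers, 4 were higher in homozygous FDG-high cells and 0 lower, with a median log2 difference of 0.94 against -0.01 over all genes and sums of 6344 to 9258 units in FDG-high against 3365 to 3381 units in FDG-low cells. Basal markers were higher in 1 of 12, with a median of 1.96 and sums of 11000 to 15030 against 3564 to 3919 units. None of the 9 luminal progenitor markers passed (6 at an unadjusted p under 0.05, against 12.9% of all genes), at a median of 1.54, and none of the 14 fibroblast markers (1 at an unadjusted p under 0.05), at a median of -0.38 and sums of 13960 to 17790 against 18300 to 18690 units. Their part in the higher protease and inhibitor levels was not tested.

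In heterozygous glands the same gate comparison had the opposite sign for all 4 genes. St14 differed by -1.11 ± 0.19, Prss8 by -1.22 ± 0.18, Spint1 by -0.51 ± 0.10 and Spint2 by -0.49 ± 0.10, and none passed the threshold (limma, adjusted p = 0.154, 0.116, 0.169 and 0.194). All 4 had an unadjusted p under 0.05, as did 10.3% of all genes, and a single gene, 0.00603% of those tested, passed after adjustment. FDG-high arrays lay below FDG-low arrays without overlap for all 4, as for 20.5% of all genes. The second probes of St14 and Prss8 had differences of -1.51 ± 0.21 and -0.87 ± 0.20.

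In these glands 0 of 16 epithelial markers passed (11 at an unadjusted p under 0.05), with a median of -0.61 and sums of 7717 to 7776 units in FDG-high against 12280 to 13240 units in FDG-low cells. Fibroblast markers had a median of 1.91 with 0 of 14 past the threshold (13 at an unadjusted p under 0.05) and sums of 12200 to 21560 against 3164 to 8016 units. The last range shows that the 2 heterozygous FDG-low arrays differed in fibroblast transcripts. Basal markers went opposite to the members, higher in FDG-high cells for 12 of 12, with a median of 0.67 and 5 at an unadjusted p under 0.05. Luminal progenitor markers were lower for 9 of 9, with a median of -1.12 and 9 at an unadjusted p under 0.05. No marker of these 2 lists passed the threshold, and 10.3% of all genes had such an unadjusted p. The part of the markers in these values was not tested.

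The dependence of the gate difference on genotype was tested as an interaction, and 3 of the 4 genes passed. St14 had an interaction of 3.21 ± 0.27 (limma, adjusted p = 0.0124), Spint2 of 1.86 ± 0.14 (adjusted p = 0.0124) and Prss8 of 1.83 ± 0.25 (adjusted p = 0.0403). Spint1 missed the threshold at 0.82 ± 0.14 (adjusted p = 0.0643). Over all genes, 0.579% were called with a higher gate difference in homozygous glands and 0.235% with a lower one. Epithelial markers shared the interaction, with 5 of 16 called higher at a median of 1.73, against a median of 1.85 for the members. So did luminal progenitor markers, with 3 of 9 at a median of 2.66. None of the 12 basal (median 0.91), 7 hormone-sensing luminal (0.39) or 14 fibroblast markers (-2.10) passed. The part of the markers in the interaction was not tested. The same 5 arrays ended the calls of St14 and Spint2 when left out: the second heterozygous FDG-high array (adjusted p = 0.0519 for both), the first heterozygous FDG-low array (0.0617 and 0.0575), the second (0.0595 for both), the first homozygous FDG-low array (0.0953 and 0.0863) and the second (0.0892 and 0.0684). Prss8 was lost without any of these 5 (0.11, 0.101, 0.118, 0.144 and 0.157), without the first heterozygous FDG-high array (0.0595) or the first homozygous FDG-high array (0.0857), and with no background correction (0.0524).

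Between homozygous and heterozygous FDG-high cells, the comparison the study made for Axl loss in reporter-active cells, no member passed, and 0% of all genes did (limma, 0 of 4 members and 3.85% of all genes at an unadjusted p under 0.05). Axl itself, at -2.76 ± 0.20, did not pass either (limma, adjusted p = 0.0795), so the lack of calls does not show equal levels. The log2 difference of St14 was -0.20 with a 95% interval of -0.65 to 0.25, that of Prss8 0.19 (-0.23 to 0.61), that of Spint1 0.01 (-0.22 to 0.25) and that of Spint2 -0.08 (-0.33 to 0.16). The intervals, which like the p-values reflect only the spread among these arrays, leave out the fitted genotype difference in FDG-low cells for each gene. For Spint1 that difference is a lower bound. The rank product named in the study's design was run at an unadjusted permutation p under 0.01 and at least 1.5-fold. It called 201 of 16593 genes, Axl among them and none of the 4 members. Its 4 pairwise fold changes used each array more than once, yet the permutations took them as independent, so these p-values tend to be too small.

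**Figure D2:**
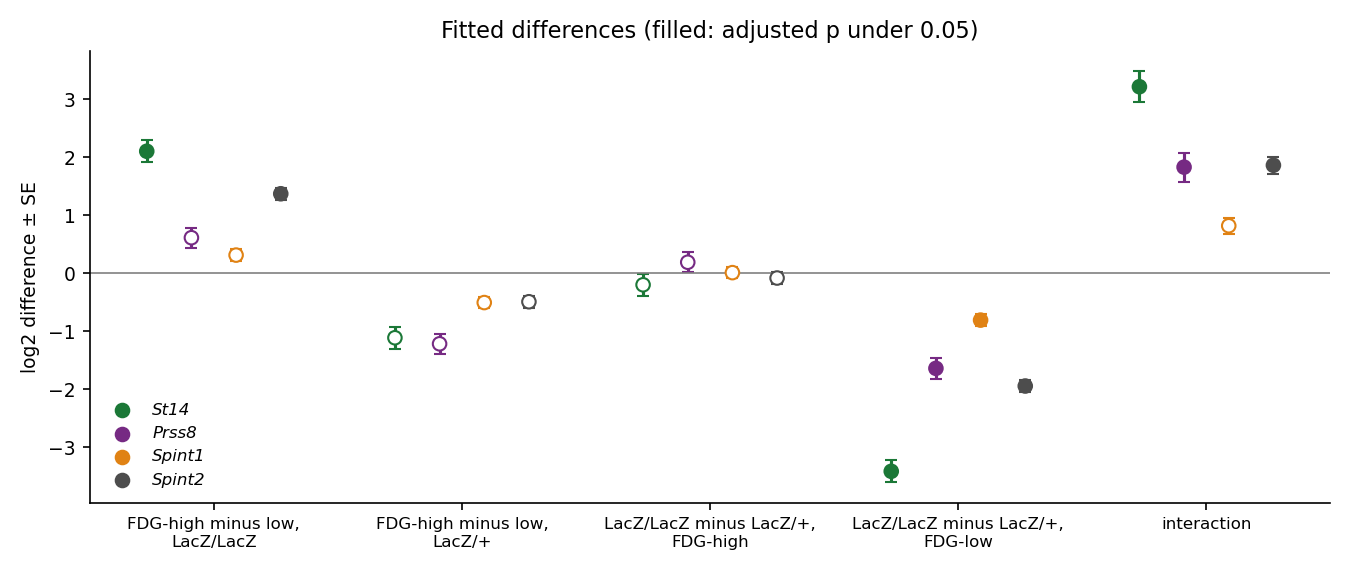
Log2 difference with its standard error (vertical axis) of St14, Prss8, Spint1 and Spint2 in the 5 contrasts, FDG-high minus FDG-low and LacZ/LacZ minus LacZ/+, filled where the adjusted p was under 0.05. All 4 are positive between the gates in LacZ/LacZ glands, negative in LacZ/+ glands, near 0 between the FDG-high groups and lowest between the FDG-low groups.

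Whether inhibitor and protease probes moved by equal amounts was read from their difference on the same array, which shows unequal change and not the ratio of the transcripts. Against St14, Spint2 was lower by 0.73 on the log2 scale in homozygous FDG-high cells relative to FDG-low cells, with 0.79 and 1.24 in FDG-high against 1.56 and 1.94 in FDG-low arrays. In heterozygous glands Spint2 minus St14 was higher by 0.62 in FDG-high cells, with 0.74 and 1.06 in FDG-high against 0.22 and 0.34 in FDG-low arrays. Between the FDG-low groups Spint2 minus St14 differed by 1.47, with 1.56 and 1.94 in homozygous against 0.22 and 0.34 in heterozygous arrays. These values depend on the St14 probe. With its second probe, chosen as an alternative after seeing the data, Spint2 minus St14 was higher in FDG-high cells of both genotypes, by 0.57 and 1.02, and differed by 0.24 between the FDG-low groups. In homozygous FDG-low cells that probe was only just above background and the brighter one near it (6.54 and 6.70). Differences of both probes with that group are compressed.

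Spint2 minus Prss8 moved upwards in FDG-high cells of both genotypes, by 0.76 in homozygous and by 0.725 in heterozygous glands. Spint1 minus St14 changed by -1.79 between the homozygous gates and by 0.61 between the heterozygous gates, and Spint1 minus Prss8 by -0.30 and 0.71. With the second St14 probe the first pair of values was -0.49 and 1.01. In homozygous FDG-low cells Spint1 was below background, so that values with Spint1 there do not measure a size. Prss8 and both St14 probes were near background there, so that their differences are compressed. In the FDG-low genotype comparison Spint2 minus Prss8 was -0.30, and it turned to 0.16 with the smaller offset of 16. Of the 16 comparisons, the exact two-sided permutation test gave p = 0.333 for the 11 without overlap, the smallest that 2 against 2 arrays allow, and p = 0.667 for the other 5 (adjusted p = 0.485 and 0.667).

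**Figure D3:**
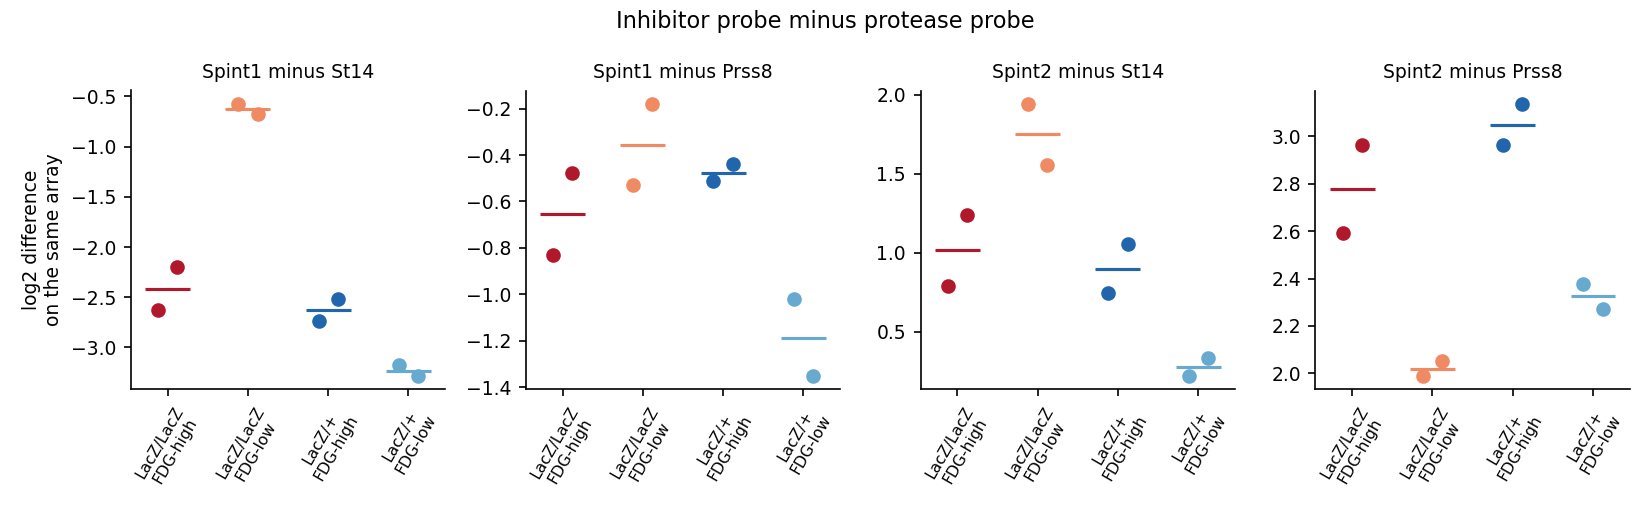
Difference of log2 intensity between an inhibitor probe and a protease probe on the same array (vertical axis, own scale per panel), by genotype and gate, with group means as lines. Against the brighter St14 probe both inhibitors are highest in LacZ/LacZ FDG-low and lowest in LacZ/+ FDG-low arrays, while the FDG-high groups overlap.

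The members varied over the arrays as the epithelial markers did. Over the 8 arrays, the mean level of the 15 epithelial markers above background had a Pearson correlation of 0.99 with St14, 0.91 with Prss8, 0.93 with Spint1 and 0.97 with Spint2, and that of the 14 fibroblast markers one of -0.73, -0.85, -0.92 and -0.64. Each value describes 8 points that fall into 4 groups on shared arrays. Set against the epithelial mean of the same array, a comparison added after the data had been seen, the brighter St14 probe changed by 1.04 between the homozygous gates, by -0.35 between the heterozygous gates and by -1.57 between the FDG-low groups, without overlap. Its second probe gave -0.26, -0.75 and -0.34, so that the first sign turned. In homozygous FDG-low cells that probe was only just above background and the brighter one near it. The first and last values of both are limited by low intensity. For Spint2 the same changes were 0.30, 0.27 and -0.10, and the groups overlapped in all but the heterozygous gates. For Prss8 they were -0.45, -0.45 and 0.21, and for Spint1 -0.75, 0.26 and 1.04, both limited by low intensity as above. The second Prss8 probe gave -0.36, -0.11 and 0.42. Of the 16 measured epithelial markers, 10 were above background on both homozygous FDG-low arrays and 15 on both heterozygous FDG-low arrays. Low intensity thus also limits the epithelial mean in homozygous FDG-low cells, and every value here that involves that group.

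**Figure D4:**
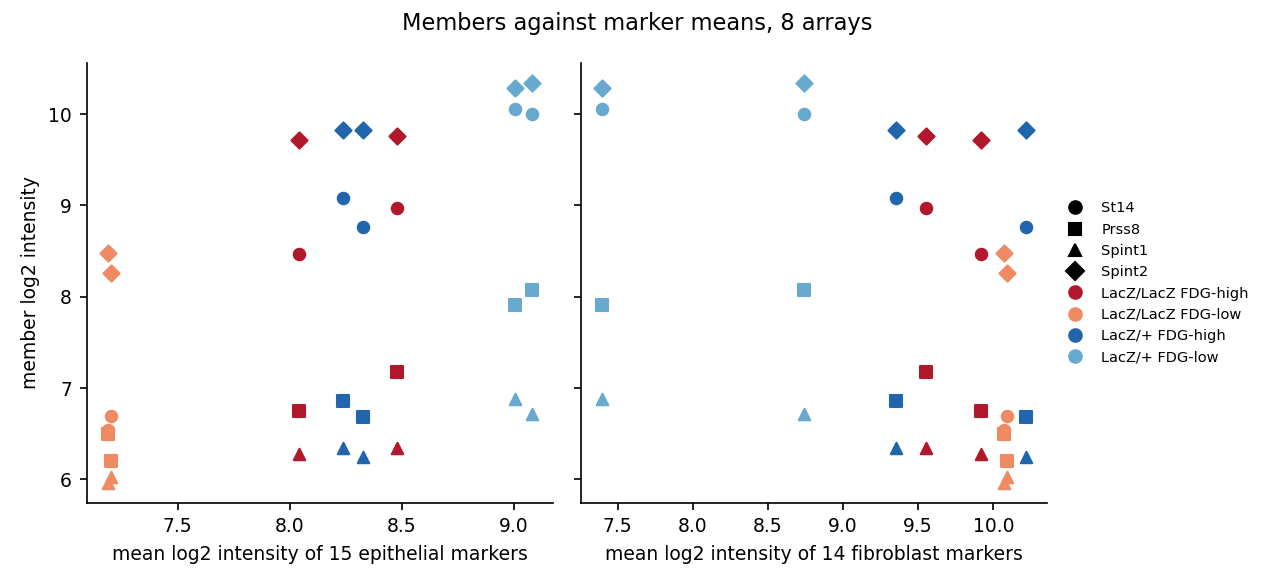
Log2 intensity of each member (vertical axis) against the mean log2 intensity of 15 epithelial markers (left) and 14 fibroblast markers (right), 8 arrays coloured by group. Members rise with the epithelial mean (r from 0.91 to 0.99) and fall with the fibroblast mean (r from -0.92 to -0.64).

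Other membrane-anchored and tryptase-like serine proteases were mostly dim, with 10 of 24 measured genes above background on at least 2 arrays. In the FDG-low genotype comparison 2 of 24 were lower and 0 higher, against 4.63% and 3.79% of all genes. Tmprss13 was at least 5.32-fold lower in homozygous cells (limma, adjusted p = 0.0199) and Tmprss2 at least 1.52-fold lower (adjusted p = 0.0295). Both are type II transmembrane proteases like matriptase. Tmprss13 lay at least 2.75-fold higher in FDG-high cells of homozygous glands (adjusted p = 0.181) and differed by -1.44 ± 0.42 in heterozygous glands (adjusted p = 0.311). Prss22, a tryptase-like protease, had gate differences of 0.30 ± 0.22 in homozygous glands and of at least 1.41-fold lower in heterozygous FDG-high cells (adjusted p = 0.668 and 0.363). Of 12 kallikreins, secreted serine proteases, only Klk11 was called. It was at least 1.42-fold lower between the FDG-low groups (adjusted p = 0.00763) with an interaction of 1.06 ± 0.15 (adjusted p = 0.0447), for which its second probe gave 0.54. The interaction missed the threshold with the replicate number as a block (Klk11, adjusted p = 0.065).

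Among 11 measured activation targets, receptors and associated membrane proteins, 3 were lower and 3 higher in homozygous FDG-low cells, against 4.63% and 3.79% of all genes. The lower ones were Muc1, a transmembrane mucin (-2.49 ± 0.35, adjusted p = 0.0142, and -1.60 to -1.17 by its 3 other probes), Cdcp1, a matriptase substrate (-1.81 ± 0.25, adjusted p = 0.0136), and Cldn7, a claudin (-1.504 ± 0.18, adjusted p = 0.00902). The higher ones were F2r, the thrombin receptor PAR1 (2.84 ± 0.36, adjusted p = 0.0102), the metalloproteinase Mmp3 (2.68 ± 0.38, adjusted p = 0.0136) and the receptor Egfr (1.68 ± 0.32, adjusted p = 0.0281). Between the gates 0 of the 11 passed in either genotype in limma, with 5 at an unadjusted p under 0.05 in each, against 12.9% and 10.3% of all genes. Cdcp1 had gate differences of 1.45 ± 0.25 in homozygous and -0.0007 ± 0.25 in heterozygous glands (adjusted p = 0.0849 and 1), and its interaction did not pass (adjusted p = 0.137). With the replicate number as a block, Cdcp1 passed between the homozygous gates (adjusted p = 0.0493).

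Of 9 growth factor and plasminogen activator genes, 2 were higher and 1 lower in homozygous FDG-low cells, against 3.79% and 4.63% of all genes. Between the FDG-low groups, Hgf, which encodes the precursor of hepatocyte growth factor, was higher in homozygous cells by 1.98 ± 0.27 (adjusted p = 0.0121), while its receptor gene Met was at least 2.04-fold lower (adjusted p = 0.0225). Plau, the urokinase gene, was higher by 1.60 ± 0.24 (adjusted p = 0.0149). The other 6 of 9 did not pass. Hgf differed by -0.89 ± 0.27 between the homozygous and by 1.40 ± 0.27 between the heterozygous gates (adjusted p = 0.235 and 0.167), opposite in sign to St14 in each.

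Of the other Kunitz inhibitors none of 10 measured genes passed in any of the 5 contrasts, with 0 to 2 at an unadjusted p under 0.05. In the homozygous gates, heterozygous gates, FDG-high groups, FDG-low groups and interaction, these numbered 0, 2, 0, 2 and 1. Over all genes the shares were 12.9%, 10.3%, 3.85%, 22.4% and 14.3% in the same order. Aplp2 and App, amyloid precursor family genes with a Kunitz domain in some isoforms, were bright, at 10.79 and 9.43 in homozygous FDG-high cells and 10.53 and 9.50 in homozygous FDG-low cells, with gate differences of 0.26 ± 0.28 and -0.07 ± 0.11. Tfpi, the tissue factor pathway inhibitor, differed by -0.37 ± 0.23 and 0.34 ± 0.23 between the homozygous and the heterozygous gates, and Papln by 0.33 ± 0.23 and -0.59 ± 0.23. The movement of Spint1 and Spint2 was not compared with these by a test.

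Of 17 serpins and other inhibitors, Wfdc2, a whey acidic protein domain gene, was the only one called between the gates. It was higher in homozygous FDG-high cells by 1.58 ± 0.13 (adjusted p = 0.0199), at -0.78 ± 0.13 in heterozygous glands (adjusted p = 0.154), with an interaction of 2.36 ± 0.19 (adjusted p = 0.0124). Its second probe gave 0.57 for the homozygous gates. Between the FDG-low groups Wfdc2 (-2.37 ± 0.13, adjusted p = 0.00162) and Wfdc18 (-2.74 ± 0.40, adjusted p = 0.0149) were lower. Serpinh1, a collagen chaperone without inhibitor activity, Serpinb9 and Serpinb6a were higher, at 1.34 ± 0.19, at least 1.92-fold and 0.83 ± 0.14 (adjusted p = 0.0139, 0.0448 and 0.0216). Thus 2 of 17 were lower and 3 higher in this comparison, against 4.63% and 3.79% of all genes. Serpinb9 missed the threshold with the replicate number as a block (adjusted p = 0.0582). Slpi, the secretory leukocyte protease inhibitor, differed by 1.33 ± 0.40 between the homozygous gates (adjusted p = 0.229). Serping1 and Serpinf1 had the highest values between the heterozygous gates, at 1.69 ± 0.60 and 1.16 ± 0.31 (adjusted p = 0.399 and 0.271).

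The list-gene calls between the FDG-low groups depended on single arrays. Apart from that of Wfdc2, each was lost without the first homozygous FDG-low array, with adjusted p from 0.0679 for Klk11 to 0.188 for Serpinb9. The interaction and homozygous gate calls of Wfdc2 were lost without that array too (adjusted p = 0.0953 and 0.186), as was the interaction of Klk11 (0.182).

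**Figure D5:**
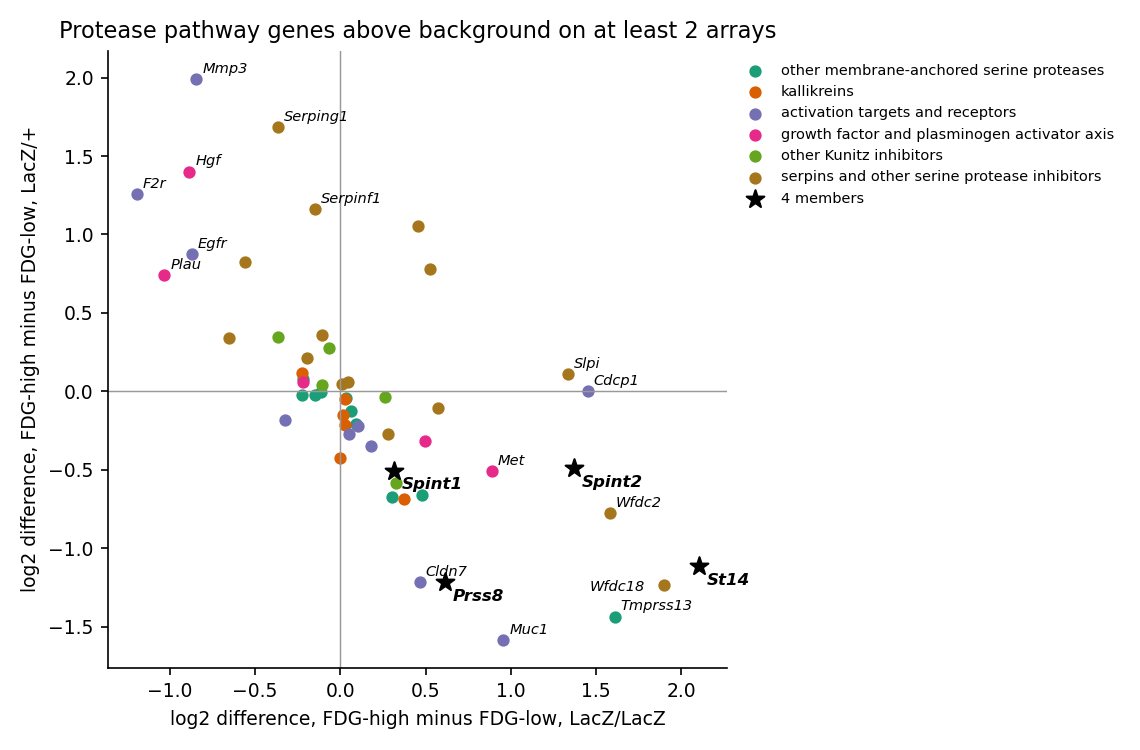
Log2 difference between FDG-high and FDG-low cells in LacZ/LacZ glands (horizontal) and in LacZ/+ glands (vertical) for protease pathway genes above background on at least 2 arrays, coloured by list, with the 4 members as stars. The 4 members, Wfdc2, Wfdc18, Tmprss13 and Muc1 lie at the lower right, and Hgf, F2r, Mmp3 and Plau at the upper left.

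The genes whose levels were most like each member were taken as the 5 with the highest Pearson correlation over the 8 arrays among 10570 genes above background on at least 2 arrays. For St14 these were Kmt5a (0.990), H1f2 (0.989), Rbm47 (0.989), S100a14 (0.988) and Apobec3 (0.987). For Prss8 they were Chp1 (0.988), Ceacam20 (0.987), Rab25 (0.983), Ddr1 (0.982) and Slc45a3 (0.981). For Spint1 they were Elmo3 (0.990), Samd5 (0.989), Slc5a1 (0.987), Crabp2 (0.986) and Lrba (0.985). For Spint2 they were H1f2 (0.993), Plet1 (0.993), Wfdc2 (0.989), Pkp3 (0.987) and Snrnp48 (0.987). H1f2 was common to St14 and Spint2, which themselves correlated at 0.98, while Prss8 and Spint2 had the lowest correlation among the members at 0.82. With Spearman correlations, 3, 2, 1 and 1 of the 5 were among the 50 most like St14, Prss8, Spint1 and Spint2. Each likeness rests on the brightest probe: the other Lrba probe, above background on all 8 arrays, correlated with it at only 0.199, and the 2 other Chp1 probes at 0.679 and 0.656.

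Spint2 lies on the chromosome of Axl, with 99 protein-coding genes of the GRCm38.p6 annotation between them, and Prss8 lies further along it, with 1280 between. St14 is on chromosome 9. The sources used here do not give how much donor-strain sequence flanks the insertion, and an effect of it on Spint2 cannot be told apart from genotype.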

How the data were processed

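The authors deposited linear probe intensities for 25697 probes on each of 8 arrays, per the value table itself. The design text of the study speaks of log2 quantile normalized values, which these are not. The sources used here do not give scanner settings or background handling. Intensities were background corrected with normexp (offset 50), log2 transformed and quantile normalized with limma 3.58.1 in R 4.3.3. The offset understates the change of dim genes. Groups and replicate numbers came from the sample titles.

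Probes were named from the platform annotation, where 23978 had 1 gene symbol, 0 several and 1719 none. Of the named probes, 23962 matched the GRCm38.p6 gene table, and 0 symbols changed. The brightest probe stood for each gene. The background level was the 95th percentile of 1324 receptor probes per array. Where a gene was not above it on either array of a group, the difference is at least the mean of the bright group over the mean, per dim array, of the higher of the probe's value and the lowest value above background, and the adjusted p is that of the fit. No detection p-values were used.

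All 5 contrasts came from 1 limma fit to the 4 group means (4 residual and 2.36 prior degrees of freedom), two-sided, with Benjamini-Hochberg adjustment over 16593 genes and a threshold of 0.05. A value after ± is a standard error. The fit was run on simulated independent noise with known shifts in a single group, which cannot check it for correlated arrays or dim probes. Same-numbered arrays of the gates had correlated deviations in heterozygous (0.398) and not in homozygous glands (0.011), so the numbers were not taken as pairs. The number of arrays limits the precision.

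The members and lists were chosen with earlier results of these data known. Genes were named by rule: the 4 members, Axl, list genes past the threshold, the 3 largest gate differences per list among genes above background on at least 2 arrays, defining markers, and the 5 genes most like each member. The kallikreins Klk7, Klk8, Klk10 and Klk15, named by that rule, did not pass in any contrast. Cldn7 is also in the epithelial list, and Wfdc18 in the luminal progenitor list. Epcam was not measured by a named probe. Alternatives concerned background correction, normalization, filters, probe rule, variance model, replicate block, samples fitted, the rank product and leaving out each array. Levels relative to epithelial markers and the second protease probes were added after seeing the data.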

Additional observations from a re-analysis of the deposited data

Results flagged for a closer look

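The gate difference depended on genotype by the interaction test for St14 (3.21), Prss8 (1.83) and Spint2 (1.86), and for the list genes Klk11 (1.06) and Wfdc2 (2.36), on the log2 scale. Of these, St14, Spint2 and Wfdc2 passed between the homozygous gates, and none of the 5 passed between the heterozygous gates. Among the markers, 5 of 16 epithelial and 3 of 9 luminal progenitor ones also passed the interaction test, and none of the 12 basal or 14 fibroblast ones.

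Within the arrays, the differences of both inhibitors from the brighter St14 probe had opposite signs in the genotypes, with no overlap between the gates in either. Those from Prss8 did not meet this: Spint2 minus Prss8 had the same sign in both genotypes, and Spint1 minus Prss8 overlapped between the homozygous gates. Spint1 minus St14 changed by -1.79 between the homozygous and by 0.61 between the heterozygous gates, and Spint2 minus St14 by -0.73 and 0.62. With the second St14 probe Spint2 minus St14 was 0.57 and 1.02, of 1 sign, and Spint1 minus St14 was -0.49 and 1.01. In homozygous FDG-low cells that probe was only just above background and the brighter one near it. Spint1 was below background on both homozygous FDG-low arrays, so its values there do not measure a size. The difference between the genotypes was not tested for these values. With 2 arrays per group, a test for single outlying arrays was not made.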

How the results depend on the processing

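Between the FDG-low groups, St14 and Spint2 kept their direction and their call under all 18 alternatives, and Prss8 and Spint1 lost theirs only without single homozygous FDG-low arrays. Leaving out each array gave -3.49 to -3.33 for St14, -1.78 to -1.497 for Prss8, -0.89 to -0.73 for Spint1 and -2.06 to -1.83 for Spint2, where the fitted values of Spint1 against homozygous FDG-low cells, here and below, do not measure a size. Between the homozygous gates the ranges were 1.85 to 2.35, 0.40 to 0.82, 0.28 to 0.35 and 1.26 to 1.48, between the heterozygous gates -1.27 to -0.96, -1.30 to -1.13, -0.59 to -0.42 and -0.52 to -0.46, and for the interaction 2.97 to 3.46, 1.62 to 2.04, 0.74 to 0.90 and 1.75 to 1.97. Between the FDG-high groups they were -0.45 to 0.049, -0.021 to 0.40, -0.038 to 0.059 and -0.11 to -0.06, so that the sign of St14, Prss8 and Spint1 turned, and Spint2 turned to 0.0095 with median centring. Uncalled Klk7 turned between the homozygous gates (-0.0068 with median centring, -0.044 to 0.103 over left-out arrays), as did Axl (-0.241 to 0.0875, and 0.0022 without the second homozygous FDG-low array). Spint2 minus Prss8 between the FDG-low groups turned to 0.16 with offset 16. Members past the threshold numbered 0 to 2 between the homozygous gates, 2 to 4 between the FDG-low groups and 0 to 3 for the interaction over left-out arrays. Between the homozygous gates 1 passed with the mean of all probes (St14 at 1.45 was lost) and 0 with the compared groups alone (St14 2.10, Spint2 1.37). The Prss8 interaction was 1.34 with no background correction.

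Relative to the epithelial mean of the same array, changes between the homozygous gates, the heterozygous gates and the FDG-low groups were 1.04, -0.35 and -1.565 for St14, -0.45, -0.45 and 0.21 for Prss8, -0.75, 0.26 and 1.04 for Spint1, and 0.30, 0.27 and -0.10 for Spint2. With second probes they were -0.26, -0.75 and -0.34 for St14 (0.15 between the FDG-high groups) and -0.36, -0.11 and 0.42 for Prss8. In the same order, with second probes, Spint2 minus St14 was 0.57, 1.02 and 0.24 (-0.21 between the FDG-high groups), Spint1 minus St14 -0.49, 1.01 and 1.38 (-0.12), Spint2 minus Prss8 0.66, 0.38 and -0.52, and Spint1 minus Prss8 -0.39, 0.36 and 0.62. The cause of these shifts was not tested. Low intensity in homozygous FDG-low cells limits the epithelial mean and both St14 probes.

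Over all genes, calls between the homozygous gates (65) became 43 with no background correction, 165 with offset 16, 193 with median centring, 162 above median brightness, 127 above background on 2 arrays, 141 with an intensity trend and 0 with the compared groups alone. Between the heterozygous gates (1) they became 2 with offset 16 or median centring, 5 above median brightness and 0 with the mean of probes or the compared groups alone. Between the FDG-high groups (0) they became 1 with offset 16, either filter or the trend. For the interaction (135) they became 260, 322, 259 and 276 with offset 16, the brightness filter, the background filter and the trend. Left-out arrays gave 0 to 138, 0 to 6, 0 to 0, 121 to 1478 (FDG-low groups) and 0 to 329. Higher against lower calls were 43 to 22 between the homozygous gates, 170 to 23 with median centring, 124 to 41 with offset 16 and 21 to 22 with no correction. For the interaction they were 96 to 39, and 160 to 22 with median centring.

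With the replicate number as a block, calls between the heterozygous gates became 0, no member's call changed (the Prss8 interaction stayed at 1.83), and Cdcp1 gained a call between the homozygous gates while Serpinb9 (FDG-low groups) and Klk11 (interaction) lost one. Low intensity limits Spint1, Prss8 and the second St14 probe, and the brighter St14 probe in homozygous FDG-low cells.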
